A study of Mus musculus with 3 samples.

Results

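The data describe 51 genes of mitosis and the G2/M transition in EpCAM+ cells sorted from 3 pancreatic tumours of mice and sequenced cell by cell. The genes come from a list of symbols that was chosen with earlier results of these data known, and all 51 were matched among the 31053 genes of the count tables. They were followed gene by gene in cells sorted into marker gates within each tumour, and none of the 51 serves as a gate gene. The gates were acinar (Ctrb1 and Clps, a protease precursor and a lipase cofactor of the exocrine pancreas), ductal (Tff1 and Lgals4, a mucosal peptide and a lectin of gastric and intestinal epithelium), squamous (the basal keratins Krt5 and Krt14), and Msln (Msln, Tm4sf1 and F3, that is mesothelin, a surface protein and tissue factor).

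All 3 tumours belong to 1 group and share every allele and agent. The donor mice carried Msi2-Myc, which the series title spells Musashi2-CreER-MycT58A, together with R26-LSL-tdTomato, and had received tamoxifen. tdTomato+ (MYC-expressing) epithelial cells were sorted 5 weeks after tamoxifen and grown in the pancreas of NSG recipients, immunodeficient mice that lack T, B and NK cells, until the end stage. The title names adenosquamous carcinoma, ductal adenocarcinoma and acinar cell carcinoma (ASCP, PDAC and ACC), but the sample labels do not say which tumour is which, and there is no untransformed control. The labels number the tumours without saying whether each came from its own donor, so p-values measure only how the differences between gates vary among these tumours.

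A dividing cell passes from G2 into mitosis when the kinase Cdk1, bound to a B-type cyclin, becomes active. Spindle motors, the kinetochore and the chromosomal passenger complex then align the chromosomes, the anaphase-promoting ubiquitin ligase triggers their separation, and the cytokinesis machinery cuts the cell apart. Most of these genes are transcribed late in the cell cycle by the MuvB complex with B-Myb and FOXM1, which acts through the cell cycle genes homology region (CHR) near the transcription start, often beside CCAAT boxes bound by NF-Y. Myc drives cell cycle entry, and the exocrine pancreas of an adult mouse otherwise divides little.

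The promoters are shown first because CHR letters stood in most of those found, though not in all. RefSeq promoter sequences of build GRCm38.p6, running from 250 bases before to 50 bases after the start, were found by symbol for 45 members and not for Tpx2, Dlgap5, Aurkb, Cdca2, Smc4 and Cdc25c. Both forms of the CHR (TTTGAA and TTCGAA) and the CCAAT box were searched on both strands, and the 6 promoters below were chosen to show members that fell, members that did not, and 1 without a CHR. They are Cdk1 (chr10:69352863-69353162, minus strand), Top2a (chr11:99024140-99024439, minus), Ube2c (chr2:164769679-164769978, plus), Cks2 (chr13:51644982-51645281, plus), Ccnb2 (chr9:70421505-70421804, minus) and Kif23 (chr9:61946750-61947049, minus). Each is written 5′ to 3′ on the strand of its gene, and capitals mark CHR and CCAAT letters in either orientation.
Cdk1: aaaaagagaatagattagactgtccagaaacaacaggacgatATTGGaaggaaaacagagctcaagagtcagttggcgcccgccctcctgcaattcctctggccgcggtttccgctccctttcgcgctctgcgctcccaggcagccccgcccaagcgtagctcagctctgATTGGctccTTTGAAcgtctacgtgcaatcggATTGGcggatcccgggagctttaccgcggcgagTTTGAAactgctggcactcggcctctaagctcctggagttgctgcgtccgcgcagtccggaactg
Top2a: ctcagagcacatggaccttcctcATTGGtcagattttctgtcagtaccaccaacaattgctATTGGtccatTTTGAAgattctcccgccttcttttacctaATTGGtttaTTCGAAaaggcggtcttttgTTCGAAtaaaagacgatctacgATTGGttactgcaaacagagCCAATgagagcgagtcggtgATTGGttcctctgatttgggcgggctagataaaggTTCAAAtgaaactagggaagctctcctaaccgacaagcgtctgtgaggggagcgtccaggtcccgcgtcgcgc
Ube2c: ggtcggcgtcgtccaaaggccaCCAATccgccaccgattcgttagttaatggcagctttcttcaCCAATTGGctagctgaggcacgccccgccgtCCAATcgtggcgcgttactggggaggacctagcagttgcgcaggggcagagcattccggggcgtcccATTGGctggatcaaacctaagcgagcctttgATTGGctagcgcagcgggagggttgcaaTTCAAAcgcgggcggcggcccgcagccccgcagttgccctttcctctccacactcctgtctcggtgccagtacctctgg
Cks2: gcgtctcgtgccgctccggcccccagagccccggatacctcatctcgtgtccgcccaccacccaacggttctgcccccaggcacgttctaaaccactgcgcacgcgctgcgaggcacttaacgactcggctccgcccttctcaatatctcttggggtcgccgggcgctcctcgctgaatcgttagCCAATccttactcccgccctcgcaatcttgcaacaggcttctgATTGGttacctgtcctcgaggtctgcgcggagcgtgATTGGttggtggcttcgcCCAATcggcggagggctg
Ccnb2: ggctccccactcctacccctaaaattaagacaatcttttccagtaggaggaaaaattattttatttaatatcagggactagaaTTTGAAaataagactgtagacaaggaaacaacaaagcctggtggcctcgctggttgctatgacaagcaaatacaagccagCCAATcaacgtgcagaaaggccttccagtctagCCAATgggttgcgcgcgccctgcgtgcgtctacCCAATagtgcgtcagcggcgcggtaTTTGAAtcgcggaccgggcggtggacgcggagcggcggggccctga
Kif23: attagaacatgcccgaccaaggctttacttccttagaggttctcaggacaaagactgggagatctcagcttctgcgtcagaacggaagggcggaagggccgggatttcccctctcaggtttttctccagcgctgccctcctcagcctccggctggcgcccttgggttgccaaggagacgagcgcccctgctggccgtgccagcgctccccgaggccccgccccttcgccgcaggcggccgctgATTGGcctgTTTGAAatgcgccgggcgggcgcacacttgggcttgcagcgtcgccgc

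Cdk1 carried TTTGAA at -71 and -15 from the start, with CCAAT letters read on the other strand at -208, -80 and -48. Ccnb2, which encodes cyclin B2, held TTTGAA at -167 and +5 and CCAAT at -87, -54 and -21. In Ube2c the only CHR letters lay at -29, and in Kif23 they lay at +3. The Cks2 window held 4 CCAAT boxes and no CHR letters. A match is a description of the letters and no evidence that a factor binds there.

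Across the family, 34 of 45 promoters (75.6%) held CHR letters of either form, against 19.4% of 27025 promoters and 5 of 31 promoters (16.1%) of S phase genes. The CCAAT box was found in 35 of 45 (77.8%), against 37.9% of all promoters and 71.0% of the S phase promoters. Both elements together stood in 29 of 45 member promoters (64.4%), in 7.70% of all promoters and in 12.9% of S phase promoters. The CHR letters began between +1 and +50 in 18 of 45 members (40.0%) and between -50 and -1 in 11 (24.4%), where 2.40% and 3.03% of all promoters had them.

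**Figure D1:**
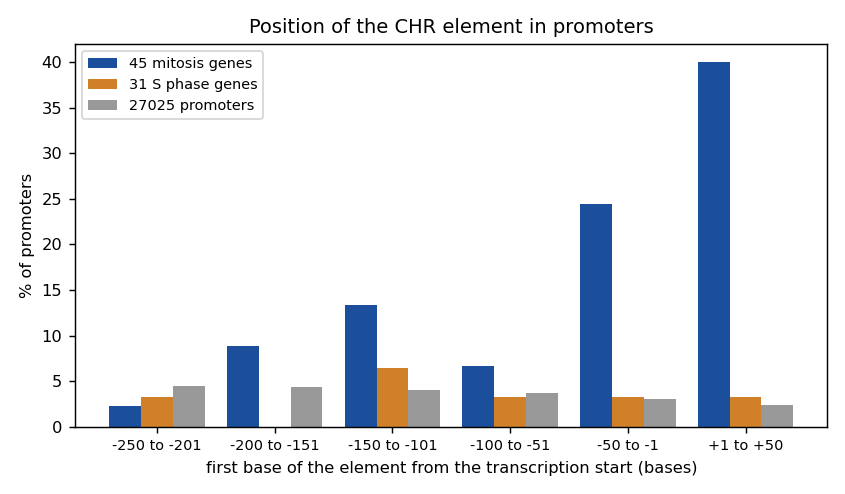
Share of promoters (vertical axis, percent) in which CHR letters begin within each 50-base bin from the transcription start (horizontal axis, bases), for 45 mitosis genes, 31 S phase genes and 27025 promoters of all genes. The mitosis genes stand at 24.4% and 40.0% in the last 2 bins and all promoters at 3.03% and 2.40%.

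After filtering, 1431, 253 and 2804 cells of tumours 1, 2 and 3 remained, with a median of 1621, 1333 and 1605.5 UMIs (unique molecular identifiers, counted RNA molecules). Barcodes were shared between libraries: every kept barcode also had 10 or more UMIs in another library, and 72, 9 and 170 kept barcodes had 1000 or more there. A barcode was kept in the library that held at least 60% of its UMIs, which removed 7.86%, 50.5% and 0.989% of the barcodes that passed the other filters in tumours 1, 2 and 3. Tumour 2 had the fewest barcodes before this rule as well as after it. The acinar gate held 332, 40 and 1860 cells, the ductal gate 272, 63 and 152, the Msln gate 24, 2 and 24, and the squamous gate 1, 2 and 65, and 789, 143 and 668 cells passed no gate. The gates matched markers they had not used: 11 other acinar genes summed to 6587 to 7340 CPM (UMIs of a gene per 1000000 UMIs of the sum) in the acinar gate and 179 to 271 CPM in the ductal gate, and 10 other ductal genes to 8706 to 12284 CPM in the ductal gate and 1981 to 2825 CPM in the acinar gate. In tumour 3, 8 other squamous genes summed to 8317 CPM in the squamous gate and to 376, 872 and 1138 CPM in the acinar, ductal and Msln gates. The squamous gate of that tumour also held 4442 CPM of the ductal list. The Msln gate held 6635 and 8602 CPM of the ductal list in tumours 1 and 3, and the epithelial genes Epcam, Krt8, Krt18 and Cdh1 each had UMIs in every gate sum of tumours 1 and 3.

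The 51 genes together were highest in the acinar gate and lowest in the Msln gate. They summed to 5355, 7039 and 4176 CPM in the acinar gate of tumours 1, 2 and 3 (mean 5523 ± 1439, SD, n = 3) and to 3289, 2651 and 2592 CPM in the ductal gate (mean 2844 ± 387, SD, n = 3). All 3 acinar values lay above all 3 ductal values, and with every barcode kept the means were 5209 and 2925 CPM. The Msln gate held 1439 CPM in tumour 1 (exact 95% Poisson interval 1145 to 1786, counting error only) and 1601 CPM in tumour 3 (1389 to 1836), and its 2 cells in tumour 2 held no member UMI. Cells in no gate lay between, at 4117, 4307 and 3815 CPM. The sum over a gate cannot tell fewer dividing cells from less mitotic RNA in each of them.

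The comparison of levels also needs the RNA that barcodes hold without a cell. Barcodes of 10 to 100 UMIs, taken as free RNA, held 2477, 2111 and 2252 CPM of the 51 genes, close to the ductal gate and above the Msln gate. Over all kept cells, 47 of the 51 members were above their free-RNA level in every tumour, a count not made for single gates or over all genes. Within the ductal gate, Hjurp and Psrc1 lay below their free-RNA level in every tumour. Top2a and Kif11 did so in tumours 1 and 3, and Cks2 and Aurkb in tumours 2 and 3. These are examples and not a full list for that gate. Mki67 lay above its free-RNA level there in every tumour. Free RNA also carried 1771 to 3575 CPM of 6 erythroid markers, including the globin genes, and the acinar, ductal and Msln gates carried 0 to 4.39 CPM of them. The S phase list, 43 genes of DNA replication, followed the same order as the members: 2459 ± 478 CPM (SD, n = 3) in the acinar gate and 1164 ± 155 in the ductal gate. The ratio of member to S phase CPM was 2.23 ± 0.166 (SD, n = 3) in the acinar gate and 2.47 ± 0.419 in the ductal gate, a difference within the spread between tumours.

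**Figure D2:**
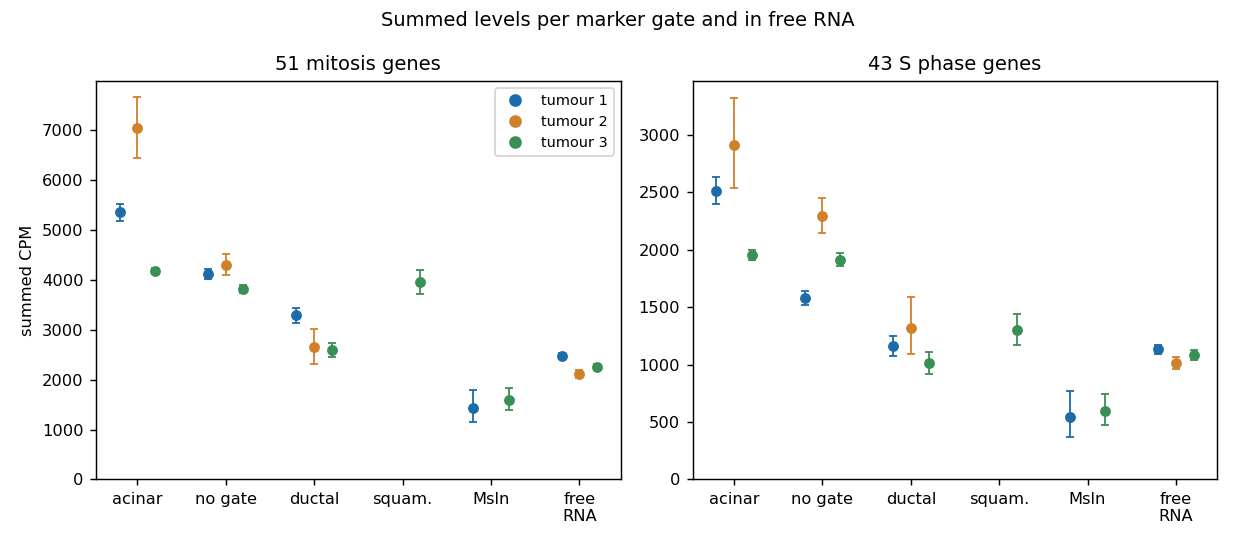
Summed CPM (vertical axis) of the 51 mitosis genes and of 43 S phase genes in each marker gate and in free RNA (horizontal axis), 1 point per tumour with its exact 95% Poisson interval. The acinar points lie at 4176 to 7039 CPM, above the ductal points at 2592 to 3289 CPM, in the left panel, and squamous and Msln points are shown where a gate held 20 or more cells.

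Between the ductal and acinar gates, 26 of the 39 members that could be tested were lower in the ductal gate and 0 were higher (edgeR quasi-likelihood test, tumour as a block, Benjamini-Hochberg over 5336 genes). At an unadjusted p under 0.05, edgeR had 1 member higher, Kif23, and DESeq2 had 0. Of all genes tested, 15.9% were called lower and 15.8% higher. The members' median log2 difference was -1.01, against -0.04 for all genes. Under the other settings described below it ran from -1.09 to -0.68. In 22 of the 39 the ranges of the 3 tumours did not overlap, of which 21 were lower in the ductal gate and 1, Kif23, was higher, and 30 were lower in every tumour. Neither count was made over all 5336 genes, so the share to set beside them is not known. The same comparison without scaling factors moved the median of all genes from -0.04 to 0.08 and the split of all calls from 847 lower and 841 higher to 599 lower and 971 higher, and it called 22 members lower and 0 higher.

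The number of calls depended on the fit and the tumours. DESeq2 called 16 members lower, gates with doubled thresholds 17 of 32 tested, and leaving out tumour 3 called 11 of the 21 still tested. Leaving out tumour 2, which lost the most barcodes to the 60% rule, called 24 of 43, and keeping every barcode called 25 of 39 lower and 1 higher, Kif23. The 26 calls held in every alternative that tested them for 11 members, namely Top2a, Ube2c, Cks2, Cks1b, Cdk1, Cdc20, Birc5, Aurkb, Hjurp, Smc4 and Hmgb2. The least stable calls were Tubb4b, lower in 5 of 17 alternatives, Anp32e in 6 of 17, and Ckap2 and Anln in 9 of 16 each. The alternative with 10 cells per sum had the same 8 sums as the reported fit and could not differ from it. It repeats the reported calls in every such tally, here and below.

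**Figure D3:**
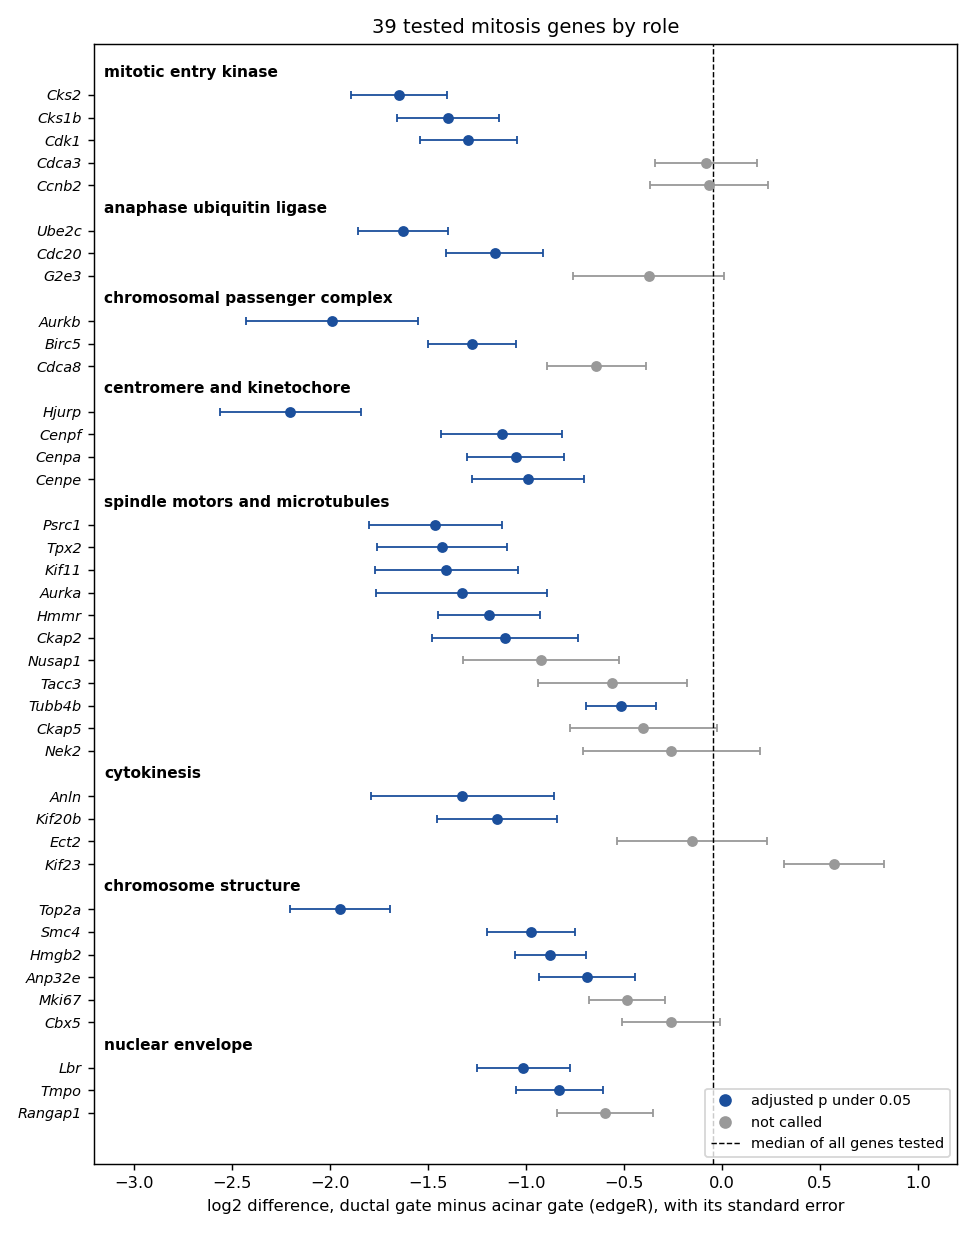
Log2 difference between the ductal and acinar gates (horizontal axis, edgeR, with its standard error) for the 39 tested members, grouped by role; blue points passed the adjusted p threshold of 0.05 and the dashed line is the median of all genes tested. The called members run from Hjurp at -2.20 to Tubb4b at -0.52, and Kif23 alone lies to the right of zero, at 0.57, without passing.

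Genes of the mitotic entry kinase divided into 3 that fell and 2 that did not pass. Cdk1 (chr10:69335146-69352938), the kinase itself, stood at 98.7, 173 and 102 CPM in the acinar gate of tumours 1, 2 and 3 and at 40.8, 69.5 and 48.7 CPM in the ductal gate. Each ductal value lay below each acinar value, and the log2 difference was -1.29 ± 0.25 (SE, adjusted p = 0.000159). Cks2 (chr13:51645232-51650660), a small subunit that docks Cdk1 to its substrates, measured 207, 637 and 217 CPM in acinar cells against 107, 57.9 and 76.2 CPM in ductal cells. Its acinar level in tumour 2 stood far above the other tumours, and the difference was -1.65 ± 0.24 (SE, adjusted p = 4.86e-06). Its paralog Cks1b (chr3:89415472-89418383) was even across acinar sums, at 129, 120 and 119 CPM, and lower in ductal sums, at 71.5, 23.2 and 38.1 CPM (log2 difference -1.40 ± 0.26, SE, adjusted p = 0.00013). In tumour 2, 1 UMI was 13.3 CPM of the acinar sum and 11.6 CPM of the ductal sum. Low values of that tumour, here and for the genes below, therefore rest on few UMIs.

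Of the B-type cyclins that partner Cdk1, cyclin B2 was not called and cyclin B1 fell. Ccnb2 (chr9:70407692-70421547), cyclin B2, gave 47.2, 53.1 and 36.8 CPM in the acinar gate and 54.5, 46.3 and 36.0 CPM in the ductal gate. The groups overlapped throughout, and the log2 difference was -0.07 ± 0.30 (SE, adjusted p = 0.897). Cdca3, a ubiquitin ligase adaptor needed for entry into mitosis, was similar in kind at 68.7, 66.4 and 51.2 CPM against 61.3, 81.0 and 59.3 CPM (-0.08 ± 0.26, SE, adjusted p = 0.849). The sign of both values turned under other settings, and both genes were singled out after their values were seen. Ccnb1, the other B-type cyclin and not a member, fell from 107 ± 24.1 CPM (SD, n = 3) to 24.2 ± 24.7 CPM, with a log2 difference of -1.67 ± 0.30 (SE, adjusted p = 7.39e-05). Whether Ccnb2 differs from Cdk1 or Ccnb1 in its change was not tested. Cdc25c, the phosphatase that activates Cdk1, had 7, 0 and 29 UMIs in the acinar sums and 4, 1 and 2 in the ductal sums, too few to be tested.

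**Figure D4:**
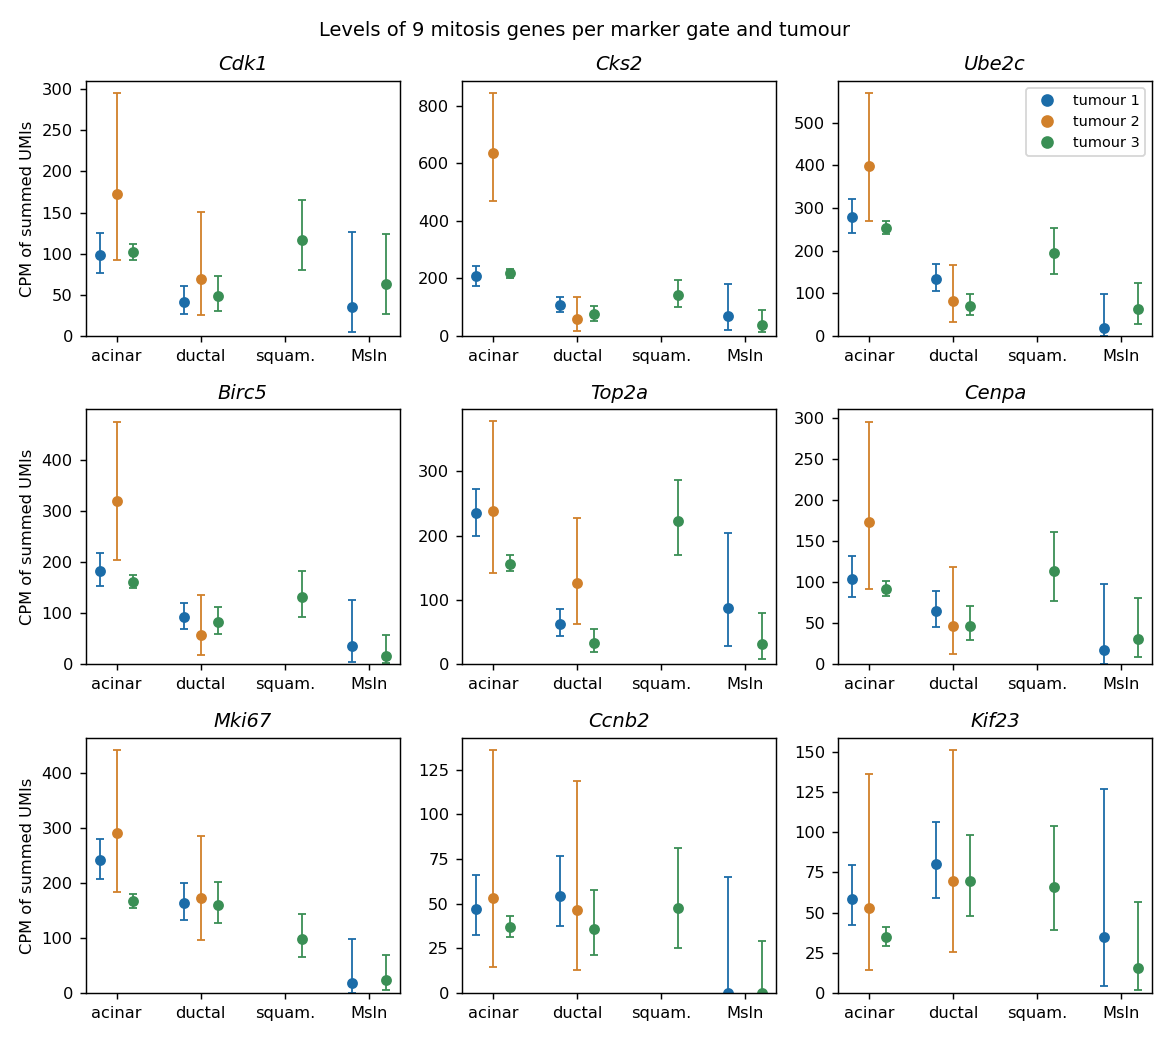
Level of 9 members (vertical axes, CPM of summed UMIs, each from 0) in the acinar, ductal, squamous and Msln gates (horizontal axes), 1 point per tumour with its exact 95% Poisson interval. Cdk1, Cks2, Ube2c, Birc5, Top2a and Cenpa have all acinar points above all ductal points, and Ccnb2 has 0 UMIs in both Msln sums.

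Members of the anaphase ubiquitin ligase pathway included 2 of the most stable calls. Ube2c (chr2:164769898-164778822), the ubiquitin-conjugating enzyme of the anaphase-promoting complex, was at 279, 398 and 253 CPM in the acinar gate and at 134, 81.0 and 69.9 CPM in the ductal gate (log2 difference -1.63 ± 0.23, SE, adjusted p = 2.35e-06). Cdc20 (chr4:118432901-118437352), its activator at the end of metaphase, was at 113, 106 and 86.9 CPM against 61.3, 34.7 and 40.2 CPM (-1.16 ± 0.25, SE, adjusted p = 0.00056). Neither gene overlapped between the gates. G2e3, a ubiquitin ligase named for its G2/M expression, gave -0.37 ± 0.39 (SE, adjusted p = 0.501).

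The chromosomal passenger complex corrects faulty attachments of chromosomes to the spindle, and 2 of its 3 listed subunits fell. Its kinase Aurkb (chr11:69045647-69051664) was at 42.9, 93.0 and 34.9 CPM in acinar sums and at 17, 11.6 and 6.35 CPM in ductal sums (log2 difference -1.99 ± 0.44, SE, adjusted p = 0.000832). Free RNA held 13.0, 13.6 and 10.9 CPM of Aurkb, above the ductal values of tumours 2 and 3. Birc5 (chr11:117849251-117855743), or survivin, was at 183, 319 and 162 CPM against 91.9, 57.9 and 82.6 CPM (-1.27 ± 0.23, SE, adjusted p = 6.74e-05). For both, the highest ductal tumour stayed below the lowest acinar tumour. Cdca8, or borealin, which helps target the complex to centromeres, was at -0.64 ± 0.25 (SE, adjusted p = 0.052) and passed in 5 alternatives.

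All 4 tested genes of the centromere and kinetochore fell. Hjurp (chr1:88262471-88277633), the chaperone that loads the centromeric histone, had the most negative log2 difference of the 39 members, -2.20 ± 0.36 (SE, adjusted p = 2.16e-05). It was at 70.1, 26.6 and 66.4 CPM in acinar sums and at 18.7, 23.2 and 10.6 CPM in ductal sums, so that tumour 2, with few UMIs of the gene, differed little. Free RNA held 39.3, 42.1 and 43.6 CPM of Hjurp, above each ductal value and above the acinar value of tumour 2. The centromeric histone itself, Cenpa (chr5:30666777-30674830), was at 104, 173 and 91.7 CPM against 64.7, 46.3 and 46.6 CPM (-1.05 ± 0.25, SE, adjusted p = 0.00152). Cenpf, a large kinetochore protein, gave 112, 159 and 79.1 CPM against 47.6, 0 and 61.4 CPM (-1.12 ± 0.31, SE, adjusted p = 0.00574). Cenpe was also lower, with a call that held in 12 of 17 alternatives, and the calls of Cenpa and Cenpf held in 16 of 17 each. Ndc80 and Nuf2, which grip microtubules, were not tested.

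Spindle genes formed the longest group, with 7 of 11 tested members lower, 4 not called and a median log2 difference of -1.11. Kif11, the motor that pushes spindle poles apart, was at 44.4, 146 and 40.7 CPM in acinar sums and at 20.4, 23.2 and 19.1 CPM in ductal sums (log2 difference -1.41 ± 0.37, SE, adjusted p = 0.0038). Free RNA held 24.8, 17.1 and 19.4 CPM of Kif11, above the ductal values of tumours 1 and 3. Tpx2, which activates Aurora A on the spindle, was at 64.4, 133 and 46.8 CPM against 37.4, 23.2 and 12.7 CPM (-1.43 ± 0.33, SE, adjusted p = 0.00136). Psrc1, a microtubule-binding protein of the central spindle, gave 65.8, 26.6 and 53.2 CPM against 27.2, 0 and 21.2 CPM, with ranges that just overlapped (-1.46 ± 0.34, SE, adjusted p = 0.00137). Free RNA held 37.8, 21.4 and 31.7 CPM of Psrc1, above each ductal value. Kif11 lost its call in 4 of 16 alternatives that tested it, Tpx2 in 1 of 17 and Psrc1 in 1 of 16. Of the others, Aurka, Hmmr, Ckap2 and Tubb4b were lower, with calls lost in 2 of 14, 1 of 17, 7 of 16 and 12 of 17 alternatives, while Nusap1, Tacc3, Ckap5 and Nek2 ran from -0.92 to -0.26 and were not called.

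The cytokinesis genes were the most divided of the roles. Kif20b, a kinesin of late mitosis, fell from 68.7, 79.7 and 47.3 CPM to 27.2, 46.3 and 27.5 CPM (log2 difference -1.15 ± 0.31, SE, adjusted p = 0.00456). Its call held in 12 of 16 alternatives. Anln, the contractile-ring scaffold anillin, was at 42.9, 79.7 and 20.0 CPM against 10.2, 11.6 and 19.1 CPM, and its call at -1.32 ± 0.47 (SE, adjusted p = 0.0307) was lost in 7 of 16 alternatives. Kif23 (chr9:61915905-61946774), the kinesin subunit of centralspindlin that bundles midzone microtubules, went the other way, with 58.7, 53.1 and 34.9 CPM in acinar sums and 79.98, 69.5 and 69.9 CPM in ductal sums. It was higher in the ductal gate in all 3 tumours without overlap, yet its log2 difference of 0.57 ± 0.25 (SE, adjusted p = 0.0882) did not pass, and 7 of 17 alternatives called it higher. Racgap1, the other centralspindlin subunit and not a member, was lower (-1.36 ± 0.35, SE, adjusted p = 0.00329). Ect2, the exchange factor that centralspindlin recruits, was at -0.15 ± 0.38 (SE, adjusted p = 0.806); Kif23 and Ect2 were singled out after their values were seen.

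Among genes of chromosome structure, the 2 best known proliferation markers gave different results. Top2a (chr11:98992943-99024189), the topoisomerase that untangles sister chromatids, was at 235, 239 and 157 CPM in acinar sums and at 63.0, 127 and 33.9 CPM in ductal sums. The highest ductal tumour, tumour 2, stayed below the lowest acinar tumour, and the log2 difference was -1.95 ± 0.25 (SE, adjusted p = 6.51e-07). Mki67 (chr7:135689784-135716361), which encodes the coat protein of mitotic chromosomes stained as Ki-67, was at 242, 292 and 167 CPM against 163, 174 and 161 CPM. Its ranges overlapped between tumour 3 of the acinar gate and tumour 2 of the ductal gate. The log2 difference of -0.48 ± 0.19 (SE, adjusted p = 0.0552) did not pass, and 4 of 17 alternatives called it lower. Whether Mki67 and Top2a differ from each other in their change was not tested.

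Smc4 (chr3:69004738-69034623), the condensin ATPase, was at 182, 345 and 134 CPM in acinar sums and at 91.9, 81.0 and 104 CPM in ductal sums (log2 difference -0.98 ± 0.22, SE, adjusted p = 0.00129). Hmgb2, a DNA-bending protein, was at 768, 837 and 563 CPM against 526, 289 and 360 CPM (-0.87 ± 0.18, SE, adjusted p = 0.000383). Hmgb2, Tubb4b and Cks1b belong to families with close copies, whose reads the counting may have split or dropped. Of the nuclear envelope genes, Lbr, the lamin B receptor, gave 123, 186 and 102 CPM against 52.7, 104 and 65.6 CPM (-1.01 ± 0.24, SE, adjusted p = 0.0015). Tmpo, a lamina-associated protein, gave 225, 186 and 157 CPM against 128, 139 and 95.3 CPM (-0.83 ± 0.22, SE, adjusted p = 0.00503). The Lbr ranges overlapped only by tumour 2 of the ductal gate.

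The 12 members that did not pass the filter on low counts were Cdc25c, Bub1, Ttk, Ndc80, Nuf2, Kif2c, Ckap2l, Dlgap5, Gtse1, Gas2l3, Ncapd2 and Cdca2. They include both spindle checkpoint kinases, Bub1 with 17, 1 and 81 UMIs in the acinar sums and 7, 1 and 2 in the ductal sums, and Ttk with 13, 2 and 39 against 8, 0 and 2. Kif2c, a motor that takes microtubules apart, had 10, 1 and 49 UMIs against 0, 0 and 1. With no filter, 51 members were tested, 25 were lower and 0 higher (edgeR, 1 at an unadjusted p under 0.05, Kif23), and Kif2c was the only one of the 12 among them.

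Other genes of mitosis and replication, from lists outside the 51, went the same way. Of 75 further mitosis genes, 32 were tested, 23 were lower in the ductal gate and 0 higher, with a median of -1.11. Fbxo5, the inhibitor of the anaphase-promoting complex also called Emi1, fell from 36.4 ± 20.1 CPM (SD, n = 3) to 4.52 ± 4.26 CPM (log2 difference -3.01 ± 0.51, SE, adjusted p = 3.93e-05). Mybl2, which encodes B-Myb of the MuvB complex, fell from 47.4 ± 17.7 CPM (SD, n = 3) to 5.38 ± 6.04 CPM (-2.68 ± 0.49, SE, adjusted p = 9.92e-05). Ccna2, Bub1b, Prc1, Ncapg2 and Lmnb1 were also lower, by log2 differences of -2.37 to -1.26. Of 43 S phase genes, 28 were tested, 22 were lower and 0 higher, with a median of -1.13. In both lists the count of higher genes was also 0 at an unadjusted p under 0.05, with edgeR and with DESeq2.

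Markers of RNA quality moved with the gates. Barcodes in which the ribosomal RNA transcripts Gm42418 and AY036118 held 5% or more of the UMIs made up 25%, 12.5% and 72.1% of the acinar gate and 4.04%, 4.76% and 2.63% of the ductal gate. Mitochondrial UMIs took a median of 2.01%, 1.61% and 0.436% of acinar cells and 3.44%, 3.72% and 4.32% of ductal cells. Without the ribosomal RNA rich barcodes the members stood at 5723, 7493 and 4866 CPM in the acinar gate, above the values with them, and 26 were lower in the ductal gate and 0 higher, 25 of them among the 26 reported. Without barcodes under 1% mitochondrial UMIs, a setting chosen after seeing the data, 25 members were lower and 1 higher, Kif23. The 6 lymphoid markers summed to 73.0, 26.6 and 61.5 CPM in the acinar gate and to 1.70, 0 and 10.6 CPM in the ductal gate, with 3 to 5 of the 6 at 0 UMIs in each acinar sum, and their part in the result was not tested. Fibroblast markers summed to 0 to 1.46 CPM in either gate, and endothelial markers to 0 to 35.8 CPM in the acinar and 5.10 to 11.6 CPM in the ductal gate.

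The members were also counted cell by cell. Each cell was thinned to 1000 UMIs at random, and a cell with 5 or more member UMIs was counted as mitosis-rich, a range on a continuous scale and not a cell type. Such cells made up 50.9%, 77.5% and 32.5% of the acinar gate in tumours 1, 2 and 3 (169 of 332, 31 of 40 and 604 of 1860 cells) and 27.2%, 22.2% and 16.4% of the ductal gate (74 of 272, 14 of 63 and 25 of 152 cells). The exact Clopper-Pearson 95% intervals did not overlap within any tumour: 45.4% to 56.4% against 22.0% to 32.9% in tumour 1, 61.5% to 89.2% against 12.7% to 34.5% in tumour 2, and 30.3% to 34.7% against 10.9% to 23.3% in tumour 3. They cover counting error only. Without the ribosomal RNA rich barcodes the shares were 57.0%, 85.7% and 48.7% in the acinar gate and 27.2%, 20% and 16.2% in the ductal gate, so that the acinar share of tumour 3, where 72.1% of the gate was removed, moved by 1.5 times. Unthinned shares were 78.6%, 92.5% and 62.3% in the acinar gate and 44.9%, 31.7% and 40.8% in the ductal gate.

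The median cell held 5, 7 and 3 member UMIs per 1000 in the acinar gate and 2, 2 and 1 in the ductal gate, lower in the ductal gate of each tumour. Cells with no member UMI numbered 4, 0 and 88 in the acinar gate and 46, 9 and 41 in the ductal gate. Median depth before thinning was 1618, 1314 and 1547.5 UMIs in acinar cells and 1653, 1254 and 1903.5 in ductal cells.

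**Figure D5:**
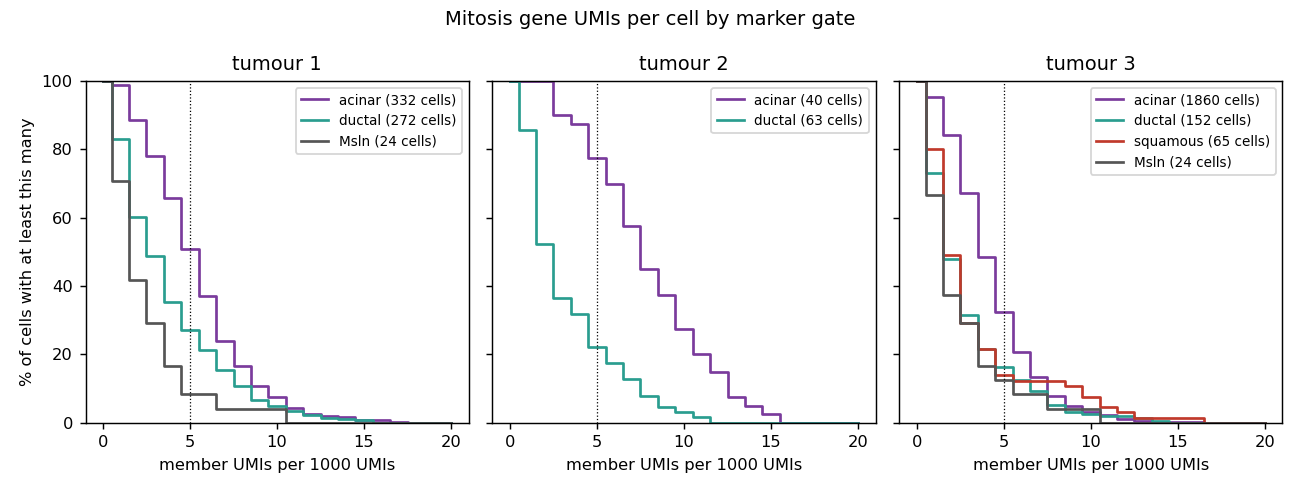
Share of cells (vertical axis, percent) with at least the number of member UMIs on the horizontal axis, after each cell was thinned to 1000 UMIs, for gates of 20 or more cells in each tumour; the dotted line marks 5 UMIs. At that line the acinar curve stands at 50.9%, 77.5% and 32.5% and the ductal curve at 27.2%, 22.2% and 16.4% in tumours 1, 2 and 3, and the squamous curve of tumour 3 has 12.3% of its cells at 8 or more.

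For single genes the share of cells with a UMI was low at this depth. Mki67 was seen in 14.8%, 22.5% and 10.2% of acinar cells and in 13.2%, 14.3% and 9.87% of ductal cells, with intervals that overlapped in each tumour. Top2a was seen in 15.4%, 22.5% and 11.1% of acinar cells and in 6.62%, 15.9% and 4.61% of ductal cells. In the Msln gate of tumours 1 and 3, which held the least of the members, 0 and 1 of 24 cells had an Mki67 UMI and 3 and 1 of 24 had a Top2a UMI.

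Most members were detected more often in cells that held UMIs of the others. When cells were divided by the other 50 members, with 5 or more of their UMIs against fewer, 44 of the 51 had the higher share in the rich cells of all 3 tumours. The other 7 (Ccnb2, Cdc25c, Ttk, Ndc80, Gtse1, Gas2l3 and Cbx5) did so in 2 tumours each. No such count was made over all genes, and genes outside the family, such as Ptma and Ncl, also rose with the summed members. In tumour 2, Cbx5 was detected in 4.95% of the rich cells and 11.8% of the others, and Ccnb2 in 1.92% and 3.36%. Top2a was detected in 18.1%, 24.0% and 17.1% of the rich cells of tumours 1, 2 and 3 and in 8.33%, 11.1% and 7.92% of the other cells. Cenpf was detected in 11.5%, 11.7% and 9.52% of the rich cells and in 2.92%, 3.33% and 3.96% of the others. These are shares over all gates, and they include the difference between the gates.

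The Msln gate, 24 cells each in tumours 1 and 3, held less of the members than either other gate. Against the acinar gate, edgeR called 21 of 39 members lower and 0 higher (0 higher also at an unadjusted p under 0.05, and by DESeq2, which called 12 lower), where 9.46% of all genes were called lower, and the members' median log2 difference was -1.92. Of the 5336 genes tested, 611 were called higher. The 3 tested members with 0 UMIs in the gate have no measured difference, and with these at their lower bound (3 counts over both tumours) the median was -1.62. Ccnb2 had 0 UMIs among 184390, at least 2.58-fold lower than in the acinar gate, and Tacc3 had 0 UMIs, at least 2.20-fold lower. Mki67 had 1 and 3 UMIs, or 17.6 and 23.5 CPM, against 242 and 167 CPM in the acinar gate of the same tumours (log2 difference -3.36 ± 0.49, SE, adjusted p = 7.81e-06). Smc4 with 3 UMIs stood at 0.103 of its acinar level (counting interval 0.0213 to 0.301) and Cdca3 with 1 UMI at 0.0904 (0.00229 to 0.504). Without the 5% of cells with the most UMIs in each tumour the Msln gate was left with 1 sum and 6 calls, and without tumour 3 with 1 sum and 9 calls.

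Against the ductal gate, edgeR called 5 of 39 members lower in the Msln gate and 0 higher (1 at an unadjusted p under 0.05, Psrc1, with edgeR and with DESeq2), where 2.36% of all genes were called lower. Of the 5336 genes tested, 206 were called higher, and 0 of 39 members is near that share. The 5 lower members were Ccnb2, Cdca3, Mki67, Smc4 and Hmgb2. Mki67 was at 17.6 and 23.5 CPM against 163 and 161 CPM in the ductal gate of tumours 1 and 3 (log2 difference -2.88 ± 0.52, SE, adjusted p = 0.000446). Hmgb2 was at 263 and 165 CPM against 526 and 360 CPM (-1.06 ± 0.29, SE, adjusted p = 0.0223), and Ccnb2 was at least 2.78-fold lower. DESeq2 kept 1 of the 5 calls, and 0 were left without the 5% of cells with the most UMIs (8 lower at an unadjusted p under 0.05). Cdk1, at 35.1 and 62.8 CPM against 40.8 and 48.7 CPM, and Top2a, at 87.8 and 31.4 CPM against 63.0 and 33.9 CPM, did not pass, with log2 differences of 0.17 ± 0.51 (SE, adjusted p = 0.894) and -0.08 ± 0.56 (SE, adjusted p = 0.962). The member sums in this gate rest on 82 and 204 UMIs.

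The squamous gate could be described in tumour 3 only, with 65 cells and no test. Its members summed to 3955 CPM (exact Poisson interval 3723 to 4198), between the acinar gate at 4176 CPM and the ductal gate at 2592 CPM of that tumour. Averaged over cells in place of UMIs, the level was 2675 CPM and the median cell held 1617 CPM, so the sum leaned on cells with many UMIs. Of 65 cells, 9 (13.8%, exact interval 6.53% to 24.7%) were mitosis-rich. Top2a was at 223 CPM in this gate, against 157 CPM in the acinar and 33.9 CPM in the ductal gate of tumour 3, whereas Mki67 was at 98.8 CPM against 167 and 161 CPM.

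Outside the family, the genes whose counts most resembled the summed members across cells were ranked by the mean Spearman rho over the 3 tumours among 4097 genes, with cells thinned to 1000 UMIs. The first was Ptma at 0.364, 0.416 and 0.200, followed by Ncl, Ctrb1, Hmgb1 and Tuba1b with means of 0.277 to 0.260. The values are weak, and cells of a library share its free RNA and its mix of gates. Acinar genes (Ctrb1, Pnliprp1, Cpa1 and Clps) stood among the first 15. The members' correlation with the summed S phase list was 0.310, 0.286 and 0.263 in tumours 1, 2 and 3.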

How the data were processed

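RNA was measured by droplet single-cell sequencing in 3 tumour libraries with totals of 11502184, 9737397 and 16521484 UMIs. The deposited matrices list raw UMI counts, 1 integer for each gene in each barcode, with no normalization; Cell Ranger 3.0.2 made them per the file headers, and the submitters' processing notes name Cell Ranger 3, Seurat 3.1 and build mm10. The deposited gene and barcode tables give names. Barcodes were kept with at least 1000 UMIs, 500 genes, at most 20% mitochondrial UMIs and at least 60% of their UMIs over the 3 libraries in 1 of them. No doublet caller was run.

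A cell entered a gate when its genes had 3 or more UMIs and 0.5% (acinar, ductal) or 0.2% (squamous, Msln) of the cell's UMIs, and it passed no other gate; 13, 3 and 35 cells passed several and were left out. UMIs were summed per gate and tumour, and the 8 acinar, ductal and Msln sums of 20 or more cells (56974 to 4098317 UMIs) were fitted with edgeR 4.0.16 (filterByExpr, TMM, glmQLFit, glmQLFTest) with the tumour as a block. The pairing comes from the shared tumour library: the deviations of acinar and ductal sums of a tumour correlated at 0.0760, 0.00536 and 0.266. Levels are CPM of the sums. Gene positions are from GENCODE vM21 (GRCm38). Scripts were tested on simulated data.

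The 51 genes, lists and tests were chosen with earlier results of these data known. The text names Cdk1, Top2a and Mki67, in each role up to 3 called members with the largest log2 difference of 1 sign in all tumours, the untested members, up to 2 called genes of each further mitosis list, and up to 5 called members against the Msln gate. Alternatives changed the scaling, tool, filter, block, tumours, gates and barcodes.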

Additional observations from a re-analysis of the deposited data

How the results depend on the processing

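The count of members lower in the ductal than in the acinar gate was 26 and became 16 with DESeq2 and 17 with doubled gate thresholds; leaving out 1 tumour gave 11 to 24, with fewer genes tested in the 2 lower fits. Without the replicate block, which pairs the sums of a tumour, 22 were called. The Msln gate minus the acinar gate had 21 calls, 12 with DESeq2, 6 without the 5% of cells with the most UMIs and 9 to 21 without 1 tumour. The Msln gate minus the ductal gate had 5 calls, 1 with DESeq2, 9 with every barcode kept, 2 with halved gate thresholds, 0 without the 5% of cells with the most UMIs (edgeR, 8 at an unadjusted p under 0.05) and 1 to 6 without 1 tumour. Where the Msln gate had 1 sum, that sum is assumed to vary like the others. An 80% home-library rule could not be fitted, since too few sums remained. It left 4, 2 and 1071 acinar cells and 7, 5 and 37 ductal cells in tumours 1, 2 and 3. The results of tumours 1 and 2 therefore rest on barcodes that mostly fall short of 80%, and no stricter rule was tested. Doubled thresholds or 50 cells per sum left no Msln sum. Of the remaining counts, none moved by over 1.5 times. The members' median log2 difference between the ductal and acinar gates, -1.01, was -0.68 without the 5% of cells with the most UMIs. It was -0.71 with halved gate thresholds and -1.09 without barcodes rich in ribosomal RNA.

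Values near 0 turned sign: Ccnb2 to 0.062 without scaling, 0.0039 with acinar and ductal sums only, 0.0004 with 50 cells per sum, 0.10 with every barcode and 0.13 without the cells with most UMIs; Cdca3 to 0.050 without scaling, 0.12 without tumour 1 (-0.073 without tumour 2), 0.0019 with halved gates, 0.040 with every barcode, 0.13 without the cells with most UMIs and 0.027 without barcodes poor in mitochondrial UMIs; and Ect2 to 0.0092 with 50 cells per sum. The mean share of mitosis-rich cells, 53.6% acinar and 22.0% ductal, was 78.4% and 39.0% at 3 UMIs, 23.2% and 7.95% at 8 UMIs, and 77.8% and 39.1% without thinning. The acinar share of tumour 3, 32.5%, was 48.7% without barcodes rich in ribosomal RNA. The cause of these changes was not tested. Depth limits what single genes can show per cell: Cdk1 was seen in 3.31% to 4.76% of ductal cells at 1000 UMIs.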
